A study of Mus musculus with 8 samples.

Results

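The 33 genes described here encode integrins and the proteins that tie integrins to actin filaments. They were chosen by name, as a list of genes and not by a threshold on their values, though with earlier results of these data known, as 9 alpha integrins, 5 beta integrins and 19 linkers, and all 33 were found among the 17652 genes present in both kinds of table of the study. FPKM states the fragments of a gene relative to its transcript length and to the size of the library. With a mean FPKM of 1 or more, 29 of the members passed the filter on low values and were among the 12936 genes tested. Itga1, Itga5, Itgb3 and Lpp did not pass and are given by level.

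Integrins are cell surface receptors made of an alpha and a beta chain, which hold cells to the extracellular matrix and to other cells. Talins and kindlins bind the tail of the beta chain and switch the receptor on, vinculin and the complex of ILK, PINCH and parvin strengthen the link, and alpha-actinin, filamin, zyxin, VASP and tensin organise the actin behind it. In the hippocampus such adhesions occur in blood vessels, glia and the dendritic spines of neurons. Pyk2, encoded by Ptk2b, and its paralog focal adhesion kinase, encoded by Ptk2, are tyrosine kinases that act at these sites, and the tyrosine replaced in Pyk2 Y402F is the residue that Pyk2 phosphorylates on itself.

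RNA of the hippocampus was measured in 8 libraries of C57BL/6 mice, 2 in each of 4 groups. The groups were mice in which Pyk2 was knocked out with CRISPR (KO), mice made with CRISPR that carry Pyk2 Y402F, with phenylalanine in place of that tyrosine, and wild-type mice serving as controls of each of these lines (KO control and Y402F control). The labels describe all animals as transgenic mice and name no age, sex, treatment, founder line or pooling, so each p-value measures only how far these libraries vary, part of which may be technical. KO and Y402F tables hold expected counts and FPKM, control tables hold FPKM alone, and so genotype and kind of table cannot be told apart whenever a mutant is set against its controls.

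The mutant libraries held 5756180 to 6017219 expected counts, and the depth of the control libraries is unknown. Levels are given as scaled FPKM, that is FPKM divided by a size factor per library. Ptk2b was at 62.4 ± 8.92 in KO (SD, n = 2 here and in all means that follow), 375 ± 29.9 in Y402F, 308 ± 0.508 in KO control and 320 ± 4.59 in Y402F control. Ptk2 lay between 20.2 and 34.7 in the 8 libraries and was not called in the 5 comparisons. In KO against KO control its log2 difference was -0.47 (limma adjusted p = 0.0643). It was called with no scaling (0.0261), with a replicate block (0.0330) and without KO control replicate 2 (-0.70, limma adjusted p = 0.0185). KO replicate 1, Y402F replicate 1 and both KO controls had Ddx3y, a gene of the Y chromosome, at 0.0695 or less, against 4.74 or more in the other 4 libraries, so between the control pairs a difference of sex cannot be told apart from one of line. Y402F replicate 2 and both Y402F controls held 656 to 1032 of the choroid plexus gene Ttr, against 1.19 to 10.2 in the other 5 libraries. Markers of neurons summed to 3051 to 3843 and markers of dentate granule cells to 99.3 to 157, and none of the matched markers of either list was at 0 in all libraries.

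The promoter windows of the members were read for 2 motifs that recur in genes of the actin cytoskeleton and in genes without a TATA box. One was the CArG box, the site of serum response factor, and the other was GGGCGG on both strands, the core of sites bound by SP1. The end of a CArG box can also begin GGGCGG, but the matches in Vcl and Fermt2 share no base with one. RefSeq promoters on GRCm38.p6, each running from 250 bases before to 50 bases after a start, were found for 26 members with 31 starts. A CArG box stood in the windows of 2 members, Vcl and Fermt2, and in 535 of all 32851 windows (1.63%). GGGCGG stood in 19 of the 31 windows, belonging to 18 members, and in 11714 of all windows (35.7%). The first 2 stretches below are shown because they are the matches to the CArG box among the members, and the last because Itgb5 was the member that differed most between the wild-type pairs. Capitals mark the CArG box in the first 2 and GGGCGG, on either strand, in the last. A match is a run of letters and no measured binding site, and windows without a match only lack these letters.
Vcl, chr14:20929148-20929235, plus strand, CArG box starting 227 bases before the start: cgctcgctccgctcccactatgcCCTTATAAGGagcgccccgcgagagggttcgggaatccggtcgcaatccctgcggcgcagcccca
Fermt2, chr14:45530205-45530315, minus strand, CArG box starting 204 bases before the start: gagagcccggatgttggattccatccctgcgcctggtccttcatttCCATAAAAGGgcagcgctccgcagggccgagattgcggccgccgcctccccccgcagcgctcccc
Itgb5, chr16:33829436-33829664, plus strand, 3 matches from 199 to 34 bases before the start: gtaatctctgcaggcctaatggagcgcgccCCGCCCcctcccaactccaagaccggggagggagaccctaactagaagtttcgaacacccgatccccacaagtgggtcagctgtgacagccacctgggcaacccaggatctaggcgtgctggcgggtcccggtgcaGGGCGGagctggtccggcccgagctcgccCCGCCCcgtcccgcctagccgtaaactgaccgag

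Levels of the members, which FPKM states per length of transcript, spanned from under 1 to over 100 scaled FPKM. Ilk, which encodes the pseudokinase at the core of the ILK complex, had the highest mean of the 33 in each of the 4 groups, at 57.2 ± 10.5 in Y402F to 106 ± 22.1 in KO control. Actn4, an alpha-actinin that crosslinks actin, came next in every group, at 35.2 ± 2.30 to 50.2 ± 7.10. The ranges of Ilk and Actn4 did not meet in any group. The exons of Ilk share 76.7% of their length with Taf10 on the opposite strand. Strand was not given for the counting, so the level of Ilk may include reads of Taf10. In both mutants and in Y402F control Fermt2 followed (34.2 and 30.0 in KO, 30.4 and 29.0 in Y402F, 36.6 and 35.4 in Y402F control), the kindlin of most tissues outside blood and epithelium. In KO control Lims2, a PINCH protein, followed instead, with 25.2 and 50.3 in its libraries, a range that overlaps the 24.5 and 32.0 of Itgb5 and the 27.0 and 29.1 of Fermt2, the next in order. In Y402F control, too, Lims2 (44.2 and 27.3) spans both values of Fermt2. In KO control replicate 2 Lims2 was also above Actn4 (50.3 against 45.2).

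Among the integrins the beta chains Itgb1 and Itgb5 led. Itgb1, the partner of most alpha chains, was at 14.5 and 11.3 in KO, 12.3 and 13.8 in Y402F, 10.2 and 9.71 in KO control and 12.5 and 11.6 in Y402F control. Itgb5, which pairs with Itgav to bind vitronectin, was at 12.6 and 14.4 in KO and 13.7 and 16.3 in Y402F, levels that overlap those of Itgb1. Itgav was the alpha chain with the highest mean in both mutants, at 6.16 ± 0.176 in KO and 6.39 ± 1.14 in Y402F. In KO its libraries overlapped those of Itga7, a laminin receptor (4.40 and 6.18), and lay just above those of Itga6, also a laminin receptor (5.57 and 4.42). In KO control the means of Itgav, Itga6 and Itga7 were 5.07, 4.65 and 5.34, and in Y402F control 6.56, 7.30 and 5.53. The order of these 3 thus changed from group to group. In the control groups their ranges overlapped, except those of Itga6 and Itga7 in Y402F control (6.61 and 7.98 against 5.22 and 5.85). At the lower end Itga5, the fibronectin receptor chain, lay between 0.201 and 0.792, and Itgb3, known from platelets and vessels, between 0.262 and 0.709. Those levels rest on 5 to 20 and on 16 to 23 expected counts per mutant library. Of the tested integrins the lowest beta chain was Itgb4, the chain of hemidesmosomes, at 1.29 to 2.62, and Itga8, which binds nephronectin, lay between 1.90 and 3.65; neither was called in any comparison. Itga1, a collagen receptor chain, was at 0.759 to 1.14 and Lpp, a relative of zyxin, at 0.313 to 1.58.

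The paralogs within families differed in level and in how much they varied. Talin 2 (Tln2), the talin best known from brain and heart, lay between 11.1 and 12.7 in all 8 libraries, the narrowest relative range among the members whose level is above 10. Parva, the broadly expressed parvin, lay between 18.6 and 25.2, and Parvb between 12.7 and 22.7. Actn1 lay between 15.3 and 19.8, while Actn2, the alpha-actinin of muscle and of dendritic spines, ranged from 4.14 to 18.6. The plot of levels by gene shows these orders, with 1 point per library. All 4 mutant libraries lay below all 4 control libraries for 7 of the 29 tested members, beside 21.6% of all genes tested. They lay above them for 1 member, Itga3, beside 20.6% of all genes.

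**Figure D1:**
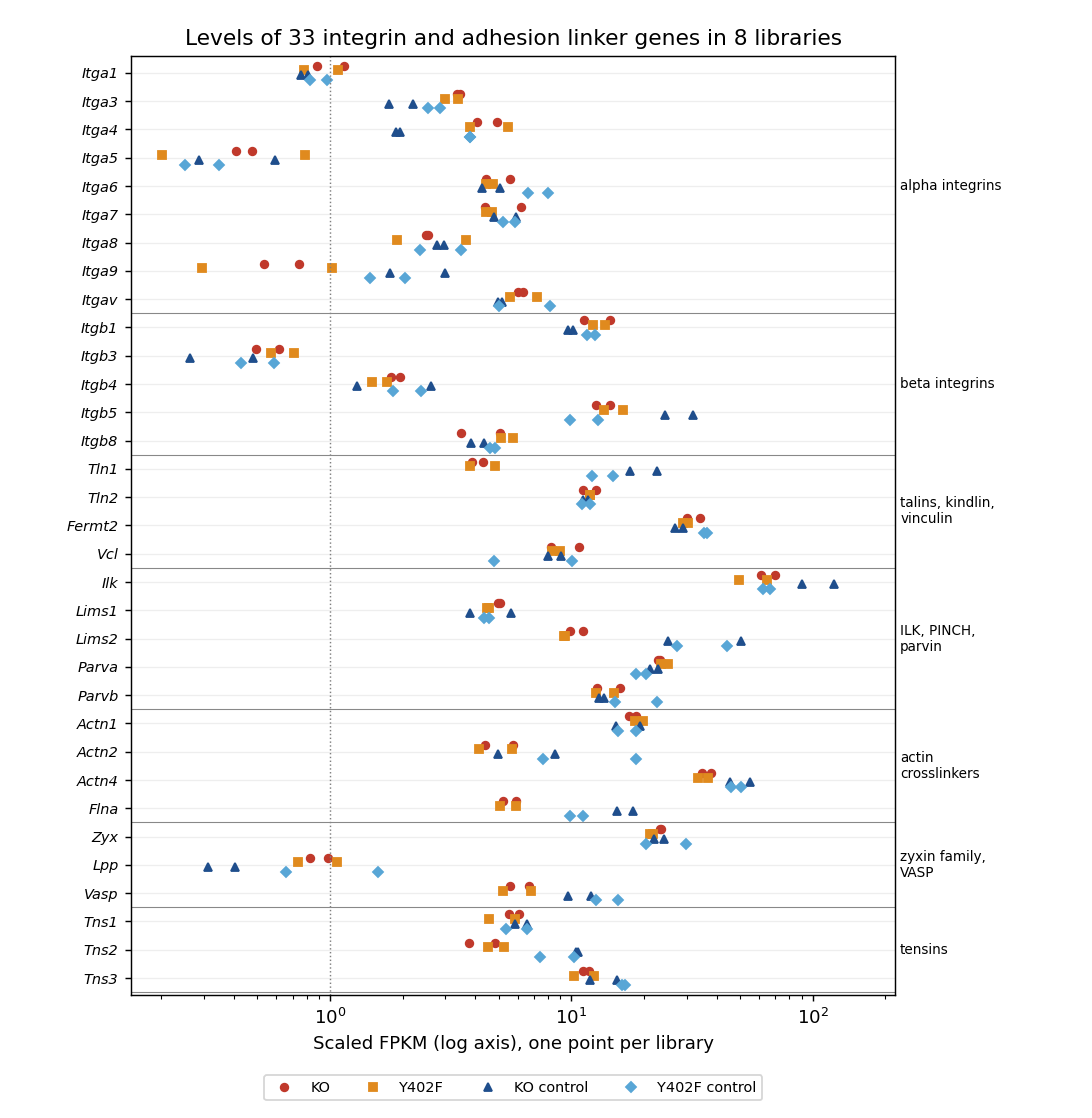
Scaled FPKM (log axis) of the 33 genes, ordered by role, with 1 point per library and the colour and shape giving the group; the dotted line marks 1 scaled FPKM. Ilk and Actn4 have the highest means in every group, though in KO control replicate 2 Lims2 (50.3) lies above Actn4 (45.2). For Tln1, Flna, Lims2, Vasp, Tns2, Actn4 and Itga9 all 4 mutant libraries lie below all 4 control libraries, and for Itga3 they lie above.

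KO was first set against Y402F, whose tables are of the same kind, which compares loss of the protein with loss of its autophosphorylation site. None of the 29 members was called by edgeR, over all genes 0.00773% of 12932 were called (Ptk2b alone), and no member had an unadjusted p under 0.05, against 241 genes in all. DESeq2 and limma also called 0 members. The log2 differences, KO minus Y402F, ran from -0.33 to 0.22 with a median of 0.05, beside a median of 0.00 over all genes. The 4 smallest p-values belonged to Itgb8, Ilk, Itga7 and Tns1, each with an edgeR adjusted p of 1.00. The absence of calls does not show that the levels are equal.

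Itgb8, the beta chain that pairs with Itgav and activates latent TGF-beta, was at 5.04 and 3.49 in KO and 5.74 and 5.09 in Y402F. The KO libraries were both the lower ones, by a narrow gap (log2 difference -0.33, SE 0.24). Ilk was at 61.3 and 69.6 in KO and 49.7 and 64.6 in Y402F, which overlap (0.20, SE 0.15). Itga7 was at 4.40 and 6.18 in KO against 4.44 and 4.71 (0.22, SE 0.21), and without KO replicate 2 its difference was -0.04. Tns1, a tensin that links beta tails to actin, was at 5.51 and 6.07 in KO against 4.54 and 5.82 (0.17, SE 0.17), and without Y402F replicate 1 its difference was -0.01. For Tln1, Flna, Lims2, Vasp, Tns2 and Actn4, which stood apart from the controls in both mutants, the differences between the mutants were -0.08 (SE 0.18), 0.03 (SE 0.17), 0.18 (SE 0.21), 0.03 (SE 0.24), -0.18 (SE 0.20) and 0.06 (SE 0.14).

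**Figure D2:**
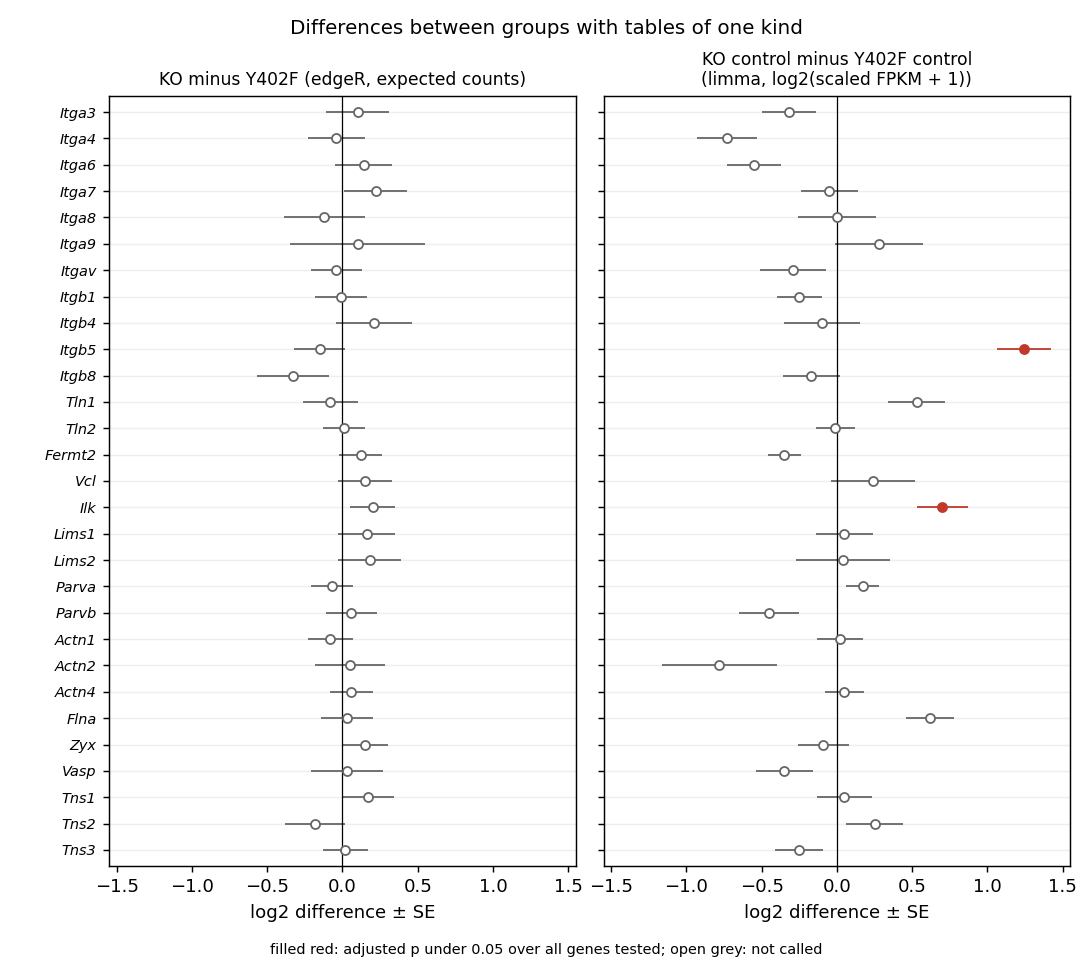
Log2 difference with SE for the 29 tested members, KO minus Y402F on the left and KO control minus Y402F control on the right; filled red points passed an adjusted p of 0.05 over all genes tested. No member passed on the left, where the points lie between -0.33 and 0.22, and Itgb5 (1.24) and Ilk (0.70) passed on the right.

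The wild-type pairs of the lines, whose tables are also of one kind, differed more. Of the 29 members 2 were called by limma (6.90%), both higher in KO control, close to the 7.98% called among all 12936 genes (4.82% higher, 3.15% lower). The median log2 difference of the members was -0.01, beside -0.02 over all genes. Among the beta integrins Itgb5 was higher in KO control, at 24.5 and 32.0 against 9.89 and 12.9 in Y402F control. These ranges do not overlap (log2 difference 1.24, SE 0.18, limma adjusted p = 0.0133). The Cufflinks interval of KO control replicate 1 (17.2 to 31.8) overlaps that of Y402F control replicate 2 (5.87 to 19.9). Otherwise the intervals of the control pairs do not meet. In the fit of only these 4 libraries the adjusted p of Itgb5 was 0.0708, and in the other 11 alternatives, those without 1 library included, it was called.

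Ilk was the other call, at 90.6 and 122 in KO control against 66.4 and 62.0 in Y402F control (0.70, SE 0.17, limma adjusted p = 0.0422). Its exons share 2106 bases, 76.7% of their length, with Taf10 on the opposite strand, and strand was not given for the counting, so the reads of these genes cannot be told apart. Taf10, a subunit of a general transcription factor, was at 82.9 and 91.8 in KO control and 60.6 and 56.1 in Y402F control (0.57, SE 0.11, limma adjusted p = 0.023). The call of Ilk was lost without KO control replicate 2 (0.163), without Y402F control replicate 1 (0.103) and without Y402F control replicate 2 (0.143). It was also lost with quantile normalization (0.0586), with no filter (0.0785), with no trend (0.0863) and when only these 4 libraries were fitted (0.105).

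Flna and Itga4 followed without a call. Flna, the X-linked filamin that binds beta tails and crosslinks actin, was at 18 and 15.4 in KO control and 9.88 and 11.2 in Y402F control (0.62, SE 0.16, limma adjusted p = 0.0501). The adjusted p of Flna was 0.0494 with no scaling. Itga4, the chain that binds VCAM1 and fibronectin, was at 1.95 and 1.87 in KO control against 3.82 and 3.82 in Y402F control (-0.73, SE 0.20, limma adjusted p = 0.0604). With sex as a further term, an alternative chosen after the data were seen, it was lower in KO control (-1.06, limma adjusted p = 0.0369). Markers of other cells moved between the same pairs. Of choroid plexus genes 5 of 7 tested were lower in KO control, of microglia genes 4 of 11 higher, of blood genes 4 of 5 higher and of dentate granule cell genes 3 of 8 lower. Higher too were 3 of 10 interneuron, 2 of 10 astrocyte, 2 of 10 oligodendrocyte, 1 of 12 endothelial and 1 of 10 pericyte and smooth muscle genes. No marker of leptomeninges, ependymal cells, CA pyramidal cells or the general neuron list was called. Over all genes 7.98% were called. With the term for sex the log2 difference was 1.44 for Itgb5 (limma adjusted p = 0.0250), 0.98 for Ilk (0.0377) and 0.79 for Flna (0.0567), each at least as large as without it. The control pairs differ in sex as they do in line, so this term was set by the mutant libraries alone. It thus cannot show whether differences between the control pairs hold apart from sex. The part of the other cells in the differences of these 4 genes was not tested; in bulk RNA fewer cells of a type and less RNA per cell cannot be told apart.

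KO was next compared with KO control, and Y402F with Y402F control. In KO 2 members were higher and 9 lower, 37.9% of the 29 beside 37.6% of all genes (16.6% higher, 21.0% lower). In Y402F 0 were higher and 9 lower, 31.0% beside 32.3% of all genes (13.0% higher, 19.3% lower). The medians of the members were -0.00 and -0.19, beside 0.00 over all genes in both. The share called was thus near that of all genes, and kind of table and genotype cannot be told apart in these values. Without scaling, the median log2 difference of all genes is -0.12 in both, and the differences given are relative to it. In both mutants 6 of the 29 members were called lower: Tln1, Flna, Lims2, Vasp, Tns2 and Actn4, while 14.1% of all genes were called so and 9.04% higher in both.

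Of the talins, talin 1 and talin 2 parted. Tln1, the talin of most tissues, was at 3.86 and 4.30 in KO and 3.82 and 4.85 in Y402F. KO control had 22.6 and 17.5 and Y402F control 14.9 and 12.2, all above the mutant values. KO stood at 20.3% of its controls (log2 difference -2.04, SE 0.19, limma adjusted p = 8.90e-05) and Y402F at 32.0% (-1.45, SE 0.19, limma adjusted p = 6.41e-04). Tln2 stood at 104% of its controls in both mutants (0.05, SE 0.13 in each). Within a library, where scaling plays no part, the ratio of Tln1 to Tln2 was 0.320 to 0.406 in the mutants and 1.02 to 1.93 in the controls. The mutant values of Tln1 rest on 182 to 239 expected counts, and the Cufflinks lower bounds of its controls were 4.08 to 11.4. The bound of 4.08, in Y402F control replicate 2, reaches into the mutant levels of Tln1, and the other bounds lie above them. The exons of Tln1 share 360 bases (3.7%) with Creb3 on the opposite strand, and Creb3 too was lower in KO (-0.85, SE 0.20, limma adjusted p = 0.0112; -0.53 and 0.0737 in Y402F). Fermt2 (0.19 in KO, -0.27 in Y402F) and Vcl (0.13 and 0.26), which encodes vinculin, were not called in either mutant.

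In the ILK complex Lims2 was lower and its paralog Lims1 was not called. Lims2 was at 11.2 and 9.87 in KO, 9.44 and 9.32 in Y402F, 25.2 and 50.3 in KO control and 44.2 and 27.3 in Y402F control. The control libraries differ widely among themselves, yet all 4 lie above all mutant libraries. The Cufflinks lower bounds of Lims2 were 0 and 15.7 in KO control and 7.11 and 0 in Y402F control, so 3 of the 4 control intervals take in the mutant levels. KO was at 27.9% of its controls (-1.67, SE 0.31, limma adjusted p = 0.00381) and Y402F at 26.2% (-1.78, SE 0.31, limma adjusted p = 0.00318). The neighbour Gpr17, which shares 188 exonic bases on the opposite strand, went the other way (0.47 in KO, limma adjusted p = 0.0181). Lims1 lay between 3.80 and 5.61 in all libraries. Ilk was lower in KO, at 61.6% of its controls (-0.68, SE 0.17, limma adjusted p = 0.0138), and Taf10 with it (-0.67, SE 0.11, limma adjusted p = 0.00189). In Y402F, Ilk was at 89.1% (-0.18, SE 0.17, limma adjusted p = 0.451). Parva and Parvb were not called in either mutant.

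Among the actin crosslinkers Flna and Actn4 were lower in both lines. Flna was at 5.21 and 5.90 in KO and 5.05 and 5.91 in Y402F, all under the control values given above. It stood at 33.2% in KO (-1.43, SE 0.16, limma adjusted p = 2.56e-04) and 52.0% in Y402F (-0.83, SE 0.16, limma adjusted p = 0.00473). Actn4 was at 34.7 and 38.0 in KO and 33.5 and 36.8 in Y402F, against 55.2 and 45.2 in KO control and 45.7 and 50.5 in Y402F control. The groups do not overlap but lie close together (-0.45, SE 0.13, limma adjusted p = 0.0234 in KO and -0.44, SE 0.13, limma adjusted p = 0.0287 in Y402F). Capn12, a calpain gene whose exons share 316 bases with Actn4 on the opposite strand, was at 5.27 to 7.45 in the mutants and at 0.635 or less in the controls. Actn2 was lower in Y402F (4.14 and 5.70, against 18.6 and 7.60 in Y402F control; -1.14, SE 0.38, limma adjusted p = 0.0499), and 1 control library holds most of that gap. Actn1 was not called in either mutant (0.06 and 0.16).

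Of the zyxin family and VASP, only the actin elongation factor VASP was called. Vasp was at 5.55 and 6.67 in KO and 5.22 and 6.82 in Y402F, against 12.1 and 9.69 in KO control and 15.6 and 12.6 in Y402F control. It stood at 56.2% in KO (-0.74, SE 0.19, limma adjusted p = 0.0169) and 42.7% in Y402F (-1.11, SE 0.19, limma adjusted p = 0.00299). Zyx lay between 20.3 and 29.9 in all libraries (0.02 in KO, -0.19 in Y402F). Among the tensins Tns2 was at 3.76 and 4.84 in KO and 4.53 and 5.26 in Y402F, against 10.5 and 10.7 in KO control and 7.42 and 10.3 in Y402F control. For Vasp and Tns2 every mutant library was below every control library. The Cufflinks lower bounds of Tns2 in the controls, 3.34 to 5.08, reach into its mutant levels, though. For Vasp these bounds were 6.02 and 4.48 in KO control and 9.01 and 6.74 in Y402F control. All but the 9.01 reach into its mutant levels. The differences of Tns2 passed the test in both lines (-1.14, SE 0.19, limma adjusted p = 0.00245 in KO and -0.73, SE 0.19, limma adjusted p = 0.0207 in Y402F). Tns3 was lower in Y402F (-0.50, SE 0.16, limma adjusted p = 0.0392) and had -0.23 in KO (limma adjusted p = 0.274). Tns1 was not called (-0.09 and -0.17).

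The integrins themselves were divided. In KO the alpha chains Itga3, a laminin receptor, and Itga4 were higher, and Itga9 and the beta chain Itgb5 were lower. Itga4 was at 4.90 and 4.06 in KO, 235% of its controls (0.91, SE 0.20, limma adjusted p = 0.00818), and at 5.47 and 3.79 in Y402F, 121% of its own (0.21, SE 0.20, limma adjusted p = 0.455). The mutant pairs overlap each other, and the control pairs differ by the values given above. The exons of Itga4 share 1124 bases (8.0%) with Cerkl on the opposite strand. Cerkl, at 0.413 to 0.838 in the mutants and 1.28 to 5.88 in the controls, went the other way. Its difference was -1.02 in KO (SE 0.47, limma adjusted p = 0.118) and -1.44 in Y402F (SE 0.47, limma adjusted p = 0.0452). Itga3 was at 3.37 and 3.45 in KO against 2.20 and 1.75 (0.57, SE 0.18, limma adjusted p = 0.0380). Itgb5 in KO was at 47.8% of its controls (-1.0, SE 0.18, limma adjusted p = 0.00344) and in Y402F at 132% (0.37, SE 0.18, limma adjusted p = 0.152).

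Itga9, which binds tenascin C and VCAM1, was at 0.744 and 0.531 in KO against 3.0 and 1.77 (-1.03, SE 0.29, limma adjusted p = 0.0256). In Y402F it was at 1.02 and 0.296 against 1.47 and 2.05 (-0.77, SE 0.29, limma adjusted p = 0.0802), and the mutant values rest on 12 to 35 expected counts. The Cufflinks lower bounds of Itga9 were 0.690 and 0.0211 in KO control and 0 and 0.267 in Y402F control. Each control interval thus takes in mutant levels. Itga6 was lower in Y402F, at 4.73 and 4.43 against 7.98 and 6.61 (-0.57, SE 0.18, limma adjusted p = 0.0413), with 0.08 in KO (limma adjusted p = 0.743). Itgb1 was not called (0.34 in KO, limma adjusted p = 0.120; 0.11 in Y402F, 0.624).

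**Figure D3:**
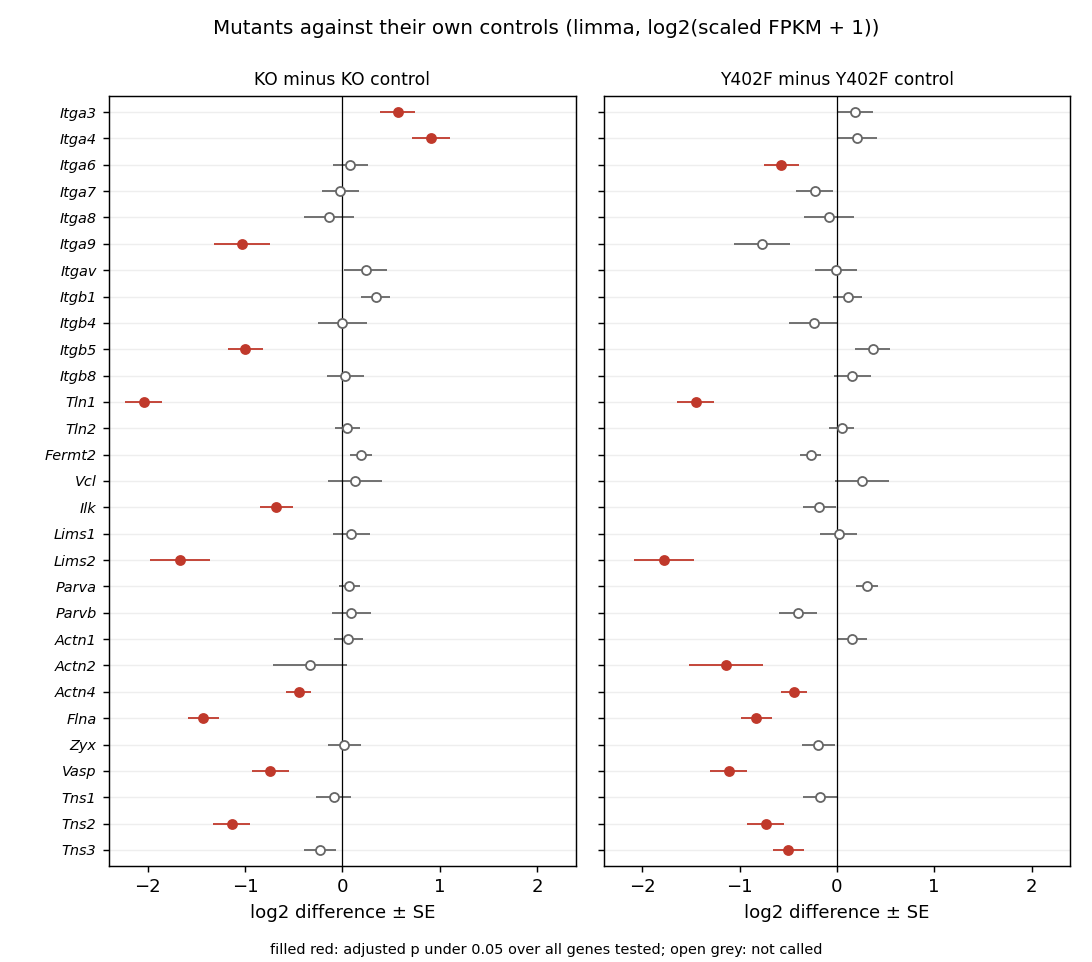
Log2 difference with SE for the 29 tested members, KO minus KO control on the left and Y402F minus Y402F control on the right; filled red points passed a limma adjusted p of 0.05 over all genes. Tln1, Flna, Lims2, Vasp, Tns2 and Actn4 lie to the left of 0 and are filled in both panels, and Itgb5 is filled in KO alone.

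**Figure D4:**
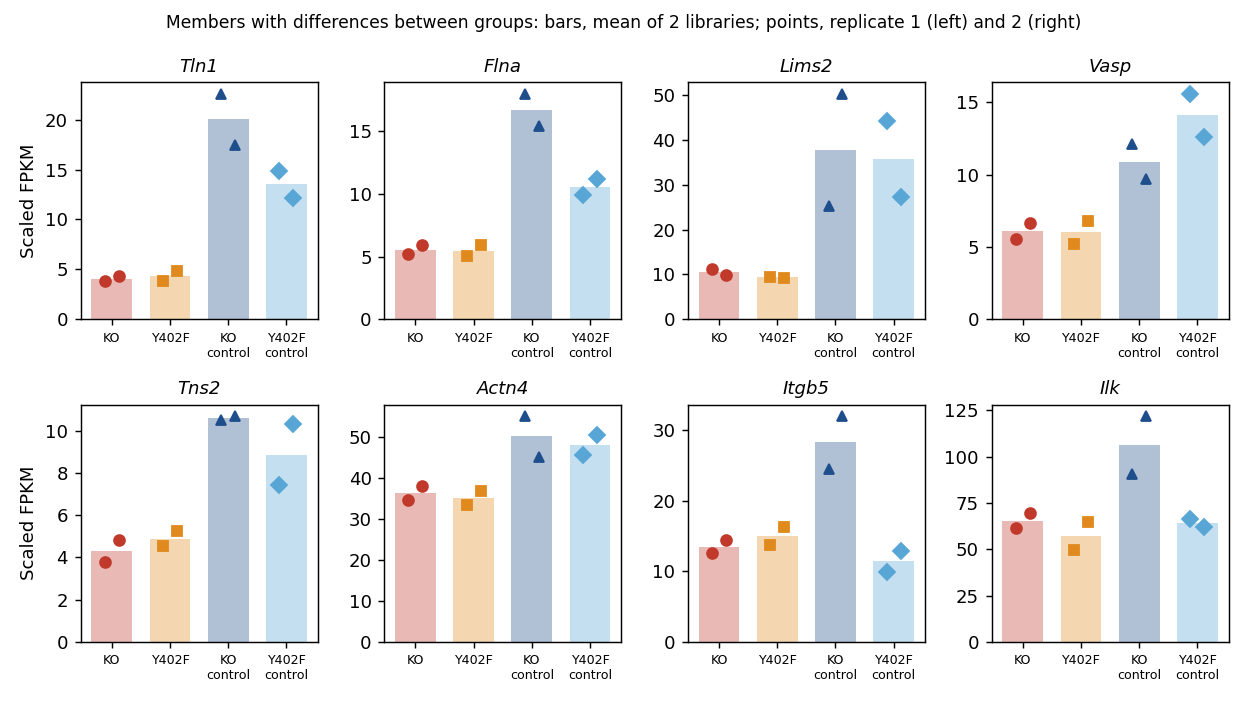
Scaled FPKM of 8 members in the 4 groups; bars give the mean of 2 libraries and start at 0, and points give replicate 1 (left) and replicate 2 (right). For the first 6 genes both mutants lie below both control groups, whereas for Itgb5 and Ilk KO control stands above the other 3 groups.

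Several of these calls were lost when 1 library was left out, which also leaves fewer libraries to fit. The differences kept their sign in these fits. They ran from 0.47 to 0.68 for Itga3, from 0.80 to 1.02 for Itga4, from -1.29 to -0.76 for Itga9, from -0.89 to -0.46 for Ilk, from -0.88 to -0.59 for Vasp and from -0.59 to -0.31 for Actn4 in KO. Tln1, Flna and Lims2 were called in both mutants under each of the 12 alternatives per line, as were Tns2 and Itgb5 in KO and Vasp in Y402F. Without KO replicate 1 the limma adjusted p in KO was 0.0613 for Itga4, 0.0778 for Itga9, 0.0930 for Ilk, 0.105 for Vasp, 0.114 for Itga3 and 0.124 for Actn4. Without KO replicate 2 it was 0.0566 for Actn4, 0.116 for Itga9 and 0.118 for Itga3. Without KO control replicate 1 it was 0.0597 for Itga3, 0.0940 for Vasp, 0.139 for Itga9 and 0.151 for Actn4, and without KO control replicate 2 it was 0.0817 for Ilk and 0.168 for Itga3.

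In Y402F the calls of Actn4, Tns3 and Itga6 were lost in all 4 fits that leave out 1 library, those of Actn2 and Tns2 in 3 of 4. The differences ran from -0.51 to -0.37 for Actn4, from -0.62 to -0.37 for Tns3, from -0.68 to -0.45 for Itga6, from -1.73 to -0.55 for Actn2 and from -0.94 to -0.51 for Tns2. Without Y402F replicate 1 the limma adjusted p was 0.139 for Actn4, 0.190 for Tns3, 0.105 for Itga6, 0.226 for Actn2 and 0.110 for Tns2. Without Y402F replicate 2 it was 0.0658, 0.0566, 0.141, 0.114 and 0.0597 for the same genes in that order. Without Y402F control replicate 1 it was 0.0575 for Actn4, 0.105 for Tns3, 0.192 for Itga6 and 0.254 for Actn2, whose log2 difference was then -0.55. Without Y402F control replicate 2 it was 0.143 for Actn4, 0.132 for Tns3, 0.0627 for Itga6 and 0.124 for Tns2. Quantile normalization ended the calls of Ilk (0.0653) and Actn4 (0.213) in KO and of Actn4 (0.130), Tns3 (0.0838), Itga6 (0.0543) and Actn2 (0.0554) in Y402F. With no filter Itga3 in KO (0.0504) and Actn2 (0.0940), Itga6 (0.0664) and Tns3 (0.0553) in Y402F lost their calls, and with no trend Actn2 (0.0710) and Actn4 (0.0567) in Y402F. The fit of only the 2 groups compared lost Itga3 in KO (0.0600) and Actn2 (0.0755), Itga6 (0.0654) and Tns3 (0.0578) in Y402F, and no scaling lost Itga3 in KO (0.0755). The term for sex ended those of Itga9 (0.0747) and Itga3 (0.0717) in KO and of Tns2 (0.0607), Actn4 (0.0711), Tns3 (0.0963) and Actn2 (0.161) in Y402F.

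The GC content of the members was also compared. Transcripts of those called lower in both mutants have a GC content of 54.0 to 58.8% (median 57.4%, longest coding transcript of GENCODE M21), against 40.4 to 60.0% (median 52.8%) in the other 23 tested members and a median of 50.4% over all 12388 tested genes with a value. Of those 23, 8 lie in the same range of 54.0 to 58.8%. Among them are Ilk and Itgb5, called lower in KO, Actn2, called lower in Y402F, and Itga3, called higher in KO. The rest are Itga7, Parvb, Tns1 and Zyx, called in neither mutant against its controls. The part of GC content in the differences was not tested. Across the 29 members the Pearson correlation of GC content with the log2 difference was -0.50 in KO and -0.45 in Y402F, and across all genes it was -0.14 and -0.00; the points share libraries and a kind of table, and genes are not independent replicates. The KO and Y402F differences correlated across genes with r = 0.74 over the 29 members and 0.82 over all genes, and these comparisons share no library but share the change of table. The sign was the same for 22 of 29 members and for 10080 of 12936 genes. Of the 6 genes, Tln1, Flna, Vasp, Tns2 and Actn4 have a promoter entry, and none of their windows holds a CArG box, as in all other members with an entry but Vcl and Fermt2.

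Markers of cells rich in adhesions stood beside these differences. Endothelial markers, 12 of 12 matched, summed to 138 to 158 scaled FPKM in the mutants and 164 to 205 in the controls. Markers of pericytes and smooth muscle summed to 76.5 to 90.2 against 94.4 to 116, and those of leptomeninges and fibroblasts to 59.5 to 96.5 against 102 to 129. The sums weight abundant markers, and the median log2 difference of the markers did not always follow them. It was 0.26 in KO and 0.28 in Y402F for endothelium, -0.31 and -0.10 for pericytes and smooth muscle, and -0.20 and 0.07 for leptomeninges and fibroblasts. Of these lists limma called 1 of 12 higher and 2 lower, 1 of 10 higher and 2 lower, and 0 of 12 higher and 3 lower in KO, and 0 and 2, 1 and 2, and 0 and 2 in Y402F. Over all genes 16.6% were called higher and 21.0% lower in KO, and 13.0% and 19.3% in Y402F. Astrocyte markers summed to 1153 to 1239 in the mutants and 1682 to 2245 in the controls. Of these, 4 of 10 were called higher and 4 lower in KO, and 1 higher and 4 lower in Y402F. Their medians were 0.09 in KO and -0.01 in Y402F. Microglia markers summed to 268 to 343 against 262 to 410. Of other cells, choroid plexus markers summed to 39.7 and 754 in Y402F against 1147 and 1172 in its controls, with 4 of 7 called lower. In KO they summed to 40.2 and 54.2 against 49.2 and 48.4, with 0 called. Neuron markers summed to 3667 to 3843 in the mutants and 3051 to 3208 in the controls. Of these, 4 of 6 were called higher and 1 lower in KO, and 2 higher and 1 lower in Y402F. None of these markers was at 0 in all libraries, and their part in the differences of the members was not tested.

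Subtracting the Y402F difference from controls from that of KO gave 0 calls among the 29 members, beside 0.0309% of all genes (4 of 12936). Of the members 5 had an unadjusted p under 0.05, beside 1684 of all genes. Itgb5 had the smallest p (-1.38, SE 0.26, limma adjusted p = 0.136), with adjusted values of 0.0736 to 0.403 over its alternatives. The mutants had like levels of Itgb5 and the control pairs did not, as given above. Fermt2 followed with 0.46 (SE 0.16, limma adjusted p = 0.293), Flna with -0.60 (SE 0.22, limma adjusted p = 0.323) and Itga6 with 0.65 (SE 0.25, limma adjusted p = 0.337). For Tln1 the difference was -0.60 (SE 0.26, limma adjusted p = 0.386) and for Lims2 0.11 (SE 0.44, limma adjusted p = 0.934). No member was thus shown to differ between the lines in its distance from controls.

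The 3 lists of other genes of the pathway, written with earlier results of these data known, give the surroundings. Among 5 tested of 14 other integrin genes and genes named for binding integrins, 0 were called between the mutants, and 1 was lower and 0 higher in KO control than in Y402F control. That gene was Itgam, the microglial CD11b chain, at 9.04 ± 3.13 in KO control and 17.1 ± 1.38 in Y402F control (-0.89, SE 0.22, limma adjusted p = 0.0448). Against controls 0 of 5 were higher and 1 lower in KO (Itgb1bp1, -0.67, SE 0.23, limma adjusted p = 0.0497), and 0 higher and 3 lower in Y402F (Itga2b, Itgam and Itgb3bp). Beside these counts, 7.98% of all genes were called between the control pairs, and 21.0% were called lower in KO and 19.3% in Y402F. Among 33 tested of 39 other adhesion proteins 0 were called between the mutants, 1 was higher in KO control (Csrp1, 0.47, SE 0.08) and 1 lower (Crkl, -0.83, SE 0.16), 3 were higher and 12 lower in KO, and 7 were higher and 12 lower in Y402F. Over all genes 37.6% were called in KO and 32.3% in Y402F, and the medians of this list were -0.29 and -0.28. Fyn, a kinase of the Src family, was lower in KO by -1.06 (SE 0.11, limma adjusted p = 2.08e-04). Its difference in Y402F was -0.68 (SE 0.11, limma adjusted p = 0.00244). Evl, a relative of VASP, was lower in both too (-0.64, limma adjusted p = 8.80e-04, and -0.69, limma adjusted p = 6.40e-04, SE 0.09 each).

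Integrin ligands made up the third list, with 23 of 29 tested. Between the mutants 0 were called, and Spp1, which encodes osteopontin, had the smallest p (1.07 ± 0.617 in KO, 3.37 ± 0.349 in Y402F; -1.63, SE 0.49, edgeR adjusted p = 1.00). Between the control pairs 1 was higher and 1 lower, beside 7.98% of all genes called. Npnt, a ligand of the Itga8 receptor, was lower in KO control (6.44 ± 1.18 against 14.5 ± 0.190; -1.07, SE 0.15, limma adjusted p = 0.0117), and Mfge8, a ligand of the Itgav receptors, was higher (94.4 ± 4.05 against 62.0 ± 3.53; 0.60, SE 0.12, limma adjusted p = 0.0283). Itga8 did not follow Npnt, with 2.98 and 2.77 in KO control and 3.49 and 2.35 in Y402F control. Against controls 2 ligands were higher and 3 lower in KO, beside 37.6% of all genes called. In Y402F 0 were higher and 3 lower, beside 32.3% of all genes. The laminin chain Lamb2 was lower in both (-1.17, SE 0.23, limma adjusted p = 0.00477 and -0.96, SE 0.23, limma adjusted p = 0.0131).

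The 4 members under the filter were tested only with no filter, and none was called in any of the 5 comparisons. Lpp had the smallest adjusted p among them, 0.155 in KO against KO control (0.49, SE 0.22), with 0.985 and 0.828 in KO and 0.313 and 0.405 in KO control. In Y402F control Lpp was at 1.58 and 0.658, a wider gap than in any other group. On GRCm38, the build of the control tables, Tln1 lies on chromosome 4 from 43531519 to 43562691, Flna on chromosome X from 74223461 to 74249820 and Itgb5 on chromosome 16 from 33829665 to 33949338.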

How the data were processed

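RNA-seq of hippocampus was analysed in 8 libraries, 2 per group; groups and replicate numbers came from the titles. The mutant tables hold the authors' expected count per gene and FPKM, with a transcript length in bases and Entrez identifiers; the control tables deposited by the authors hold FPKM with confidence bounds in the Cufflinks layout. The submitters' processing notes list Bowtie 1, HISAT and mm9 for every sample and, for controls, Cufflinks. What program and strand setting gave the expected counts was not given in the sources, and the positions in the control tables lie on GRCm38. Of the mutants' 18022 genes, 17652 had a partner in the control tables, 17593 through the symbol and 59 through the Entrez table of GENCODE; 6 of repeated identity were dropped. FPKM was divided by median-of-ratios factors (0.942 to 1.052, from 11427 genes whose FPKM is at least 1 everywhere). Genes of mean FPKM 1 or above were tested with limma 3.58.1 (intensity trend) on log2(scaled FPKM + 1), which understates changes of low genes, with all 8 libraries and 4 residual degrees of freedom. For KO against Y402F, expected counts were rounded to integers, scaled by TMM and tested by quasi-likelihood in edgeR 4.0.16 (2 residual degrees of freedom), with DESeq2 1.42.0 as an alternative. Adjusted p is Benjamini-Hochberg over all genes tested, called under 0.05. In the controls, the upper bound of Cufflinks lay a median of 34.8% above the value over the tested members, and covers the estimate of 1 library only. Members were named where called or among the 4 smallest p-values of a comparison, with the highest member of a role; the members, lists and tests were chosen with earlier results of these data known. Alternatives were the pseudocount (0.1), no filter, other scalings, no trend, a replicate block, only the groups compared, each library left out and, added later, a term for sex. Both tests were checked on simulated data. Models ran in R 4.3.3; tables and plots were made in Python 3.11.15.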

Additional observations from a re-analysis of the deposited data

How the results depend on the processing

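Counts of members called moved with the processing, and the cause was not tested. KO against Y402F and the difference of effects gave 0 members in every alternative run. Between the control pairs, 2 members were higher; the count was 1 with no filter, with quantile normalization and with no trend, 0 when only the 2 groups were fitted, 3 with no scaling and 1 to 2 without 1 library, and 1 member was lower with a term for sex. In KO against its controls, 2 members were higher; the count was 1 with no filter, with no scaling, when only the 2 groups were fitted and with a term for sex, and 0 to 1 without 1 library, and it was 3 with quantile normalization. The 9 lower members became 7 with quantile normalization, 8 with a term for sex and 5 to 8 without 1 library. In Y402F against its controls, quantile normalization gave 1 higher and 5 lower members, and fits without 1 library 0 to 1 higher and 4 to 6 lower; the lower members numbered 10 with no scaling, 7 with no trend and with a replicate block, and 6 with no filter, with only the 2 groups and with a term for sex. With 1 library left out, the lone library is assumed to vary like the other groups. Differences near 0 changed sign: Ptk2 in Y402F was 0.00 with quantile normalization and -0.30 to 0.01 without 1 library, Ptk2b between the control pairs 0.17 with a term for sex, and in KO against Y402F Itga7 ranged from -0.04 to 0.42, Ptk2 from -0.10 to 0.05 and Tns1 from -0.01 to 0.36 without 1 library. Over all genes, the 1032 calls between the control pairs became 513 with no filter, 170 with no trend, 373 when only the 2 groups were fitted and 177 to 264 without 1 library, and the 4864 in KO became 3102 without KO replicate 1. The 1 call of KO against Y402F became 2 with DESeq2, 2 with median-of-ratios factors, 5 with limma, 21 with a term for sex and 16 to 34 without 1 library, and the 4 calls of the difference of effects became 7 with no filter, 135 with a term for sex and 6 to 16 without 1 library. Deviations of same-numbered libraries correlated at -0.03 to 0.20 over the 6 pairs of groups, so the numbers were not taken to pair libraries. With a replicate block, Actn2 (-1.14, limma adjusted p = 0.0675) and Tns3 (-0.50, limma adjusted p = 0.0515) in Y402F lost their calls and no other called member did; over all genes KO against Y402F gave 21 calls with this block, which in these 4 libraries is the same split as sex. Of the members at the lowest levels, Itga5, Itgb3 and Itga9 rest on 5 to 35 expected counts per mutant library, which limits what can be seen there. Itga1 rests on 27 to 38 and Lpp on 65 to 92.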
